A study of Mus musculus with 5 samples.

Results

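Kitl and Kit, the genes of KIT ligand and of its receptor KIT, were followed through the cells of the juvenile mouse ovary. They are 2 of the 31053 genes in the count tables, of which 24630 had at least 1 UMI (a unique molecular identifier, which marks 1 captured mRNA molecule) in the 5 libraries. The genes were taken by symbol, and both had UMIs in every library. Ovaries of C57BL6/J mice aged 2, 3, 4, 5 and 6 wk, all untreated, were dissociated with trypsin, live cells were sorted on exclusion of a dead cell stain, and 1 single-cell 3′ library was made per age. The number of mice behind a library is not given in the sources used here. With 1 library per age, no difference between ages has a replicate, so no p-value is given. Intervals are exact 95% Poisson or binomial intervals, cover counting error only and leave out the spread between mice.

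KIT is a receptor tyrosine kinase, and KIT ligand is made as a membrane protein that acts on neighbouring cells or is cut off and diffuses. In the ovary granulosa cells make the ligand, and oocytes and theca cells carry the receptor. The pair is known for its part in the activation of primordial follicles, oocyte growth and the recruitment of theca cells. Outside the follicle KIT marks mast cells and blood cell precursors and is found in some vessels, whose endothelium also makes the ligand.

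Both genes have splice forms that differ in function. The segment that decides whether KIT ligand is readily cut off the membrane is exon 6 of 10 of the transcript Kitl-202, at chr10:100080857-100080940 of GRCm38 on the plus strand, within the gene at chr10:100015630-100100416. Printed with 20 bases of the flanking exons in lower case, its 84 bases in capitals are present in 1 form and absent from the other.
Kitl-202: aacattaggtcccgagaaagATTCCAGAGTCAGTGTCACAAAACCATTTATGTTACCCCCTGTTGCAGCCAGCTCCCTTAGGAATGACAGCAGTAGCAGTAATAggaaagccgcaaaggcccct
Kitl-201: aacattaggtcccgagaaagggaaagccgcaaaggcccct
In Kit, which lies on the plus strand at chr5:75574916-75656722, 12 bases at the end of exon 9 of 21, at chr5:75639147-75639158, encode a short stretch outside the membrane that 1 of the 2 coding transcripts lacks. They are in capitals here.
Kit-201: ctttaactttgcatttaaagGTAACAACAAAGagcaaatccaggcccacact
Kit-204: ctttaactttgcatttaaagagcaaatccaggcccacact
Exon 6 lies 4653 bases before the 3′ end of Kitl-202, and the Kit segment lies 3568 bases before the 3′ end of Kit-201. The libraries capture 3′ ends, so the UMIs of each gene sum over its forms and say nothing about their proportions. No other annotated gene overlapped either gene or lay within 3000 bases of it.

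In order of age, 9471, 9253, 11077, 7779 and 10583 cells were captured, with a median of 9056 to 12424 UMIs per cell, and any pair of libraries shared 18 to 35 cell barcodes. The 48163 cells were clustered without Kitl and Kit among the clustering genes, and clusters were named "-like" from marker lists. The 33 clusters gave 10 named classes, and 7730 cells stayed unnamed. Granulosa-like cells carried their 8 marker genes at a sum of 6022 to 8415 CPM, the UMIs of a gene or list scaled to 1000000 UMIs of the cells concerned, and blood endothelial-like cells carried theirs at 4007 to 4902 CPM. The 3 youngest libraries were counted with Cell Ranger 3.1.0 and the others with 6.0.1, so that version and age cannot be told apart between 4 and 5 wk.

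Kitl was a broadly detected transcript and Kit a rare one. Kitl had 59689 UMIs in 19602 of the 48163 cells, with library levels of 149, 115, 52.9, 120 and 77.8 CPM at 2, 3, 4, 5 and 6 wk. Kit had 3689 UMIs in 1412 cells, at 2.39, 3.22, 3.40, 22.1 and 2.25 CPM. The 4 wk library was lowest for Kitl, and the 5 wk library stood far above the other 4 for Kit. Of the Kit UMIs of the series, 2364 came from the 5 wk library, 1758 of them from theca-like cells. A library's level also depends on which cells it holds, so the levels below are given within classes.

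Granulosa-like cells gave most of the Kitl transcripts, but taken as a class they did not have the highest Kitl level. They held 64.9% of all Kitl UMIs and were 38.1% of the cells. By library their share of the Kitl UMIs was 69.4%, 76.9%, 67.2%, 47.2% and 65.0%. At 5 wk, theca-like cells gave a further 21.8% and blood endothelial-like cells 13.1%, against at most 2.81% and 4.28% at the other ages. These classes also made up more of the captured cells at 5 wk. They were 7.35% and 3.43% of that library, against at most 1.81% and 1.52% of the others. Stromal-like cells gave 11.6% of the Kitl UMIs of the series.

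Blood endothelial-like cells had the highest and steadiest class level of Kitl. Their levels were 321 (284 to 360), 330 (271 to 399), 283 (243 to 329), 331 (316 to 347) and 287 (262 to 314) CPM over the ages, from 70 to 267 cells per library. The highest level was 1.17 times the lowest, and the intervals overlapped except those of 5 and 6 wk. At their median depth of 8834 UMIs, 73.3% of these 715 cells had a Kitl UMI, as did 55.4% of those thinned to 3000 UMIs. The level exceeded that of granulosa-like cells in each library, by 1.36, 1.90, 4.94, 2.56 and 2.95 times (mean log2 ratio 1.32 ± 0.70, SD, n = 5 libraries). In this comparison, added after the levels had been seen, 10.3% of the genes tested were at least 2-fold higher in every library. Kitl was not among them, since 2 of its 5 ratios were under 2.

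Pericyte-like cells, the contractile cells around small vessels, came next by the median over the 5 libraries. Their Kitl levels were 112, 161, 138, 193 and 160.5 CPM, below those of blood endothelial-like cells in 5 of 5 libraries with every interval of the ratio clear of 1. The ratio to stromal-like cells was 2.02, 4.72, 3.97, 4.02 and 4.49 (mean log2 ratio 1.88 ± 0.50, SD, n = 5), so Kitl was among the 5.61% of genes at least 2-fold higher in every library. This comparison of pericyte-like cells was also added after the levels had been seen. The 7 pericyte markers summed to 3355 to 5813 CPM in these cells and the 7 endothelial markers to 355 to 440 CPM. Lymphatic endothelial-like cells, by contrast, had 19.9, 49.3, 37.6 and 33.5 CPM at 2 to 5 wk, with 14 cells at 6 wk, and exceeded stromal-like cells in 2 of 4 libraries.

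The order of the other classes differed between libraries. Granulosa-like cells had 236, 174, 57.4, 130 and 97.4 CPM, theca-like cells 201.2, 60.7, 70.5, 233 and 71.7 CPM, and surface epithelial-like cells 117, 119, 81.7, 62.6 and 69.4 CPM. Smooth muscle-like cells had 31.9 to 77.1 CPM, stromal-like cells 34.0 to 55.6 CPM and hematopoietic-like cells 20.4 to 51.1 CPM. Among the stromal types, Hoxd9-like cells had 46.3 to 81.1 CPM, Col14a1-like cells 44.2 to 57.2 CPM and Cxcl12-like cells 32.7 to 65.0 CPM. Neighbours in the middle of this order changed places between libraries. Pericyte-like cells exceeded granulosa-like cells in 3 of 5 libraries, surface epithelial-like cells exceeded theca-like cells in 2 of 5, and smooth muscle-like cells exceeded stromal-like cells in 3 of 5.

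Free RNA in the droplets can give UMIs to cells that do not express a gene. Of the stromal-like cells, whose median depth was 9804 UMIs, 28.9% had a Kitl UMI, and 11.3% did at 3000 UMIs. At that depth the share was 4.86% in the Cd24a-like stroma and 6.32% in early theca-like cells. For granulosa-like cells, with a median depth of 14825.5 UMIs, these shares were 58.2% and 28.1%. The part of free RNA in these shares was not tested. Kitl UMIs per 1000 granulosa marker UMIs were 36.5, 20.6, 8.37, 21.5 and 13.8 in granulosa-like cells and 701, 386, 215, 662 and 514 in blood endothelial-like cells. In hematopoietic-like cells the values were 56.6, 24.3, 17.3, 94.2 and 52.0.

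Kitl in granulosa-like cells was set against stromal-like cells because both are abundant at every age. It was higher by 4.24, 5.10, 1.65, 2.70 and 2.72 times at 2, 3, 4, 5 and 6 wk (mean log2 ratio 1.61 ± 0.64, SD, n = 5), and each interval lay above 1. Of the genes tested, 9.02% were at least 2-fold higher in all 5 libraries and 11% at least 2-fold lower, and Kitl was not one of them because of its ratio at 4 wk. Granulosa regulators were higher in the same comparison in 5 of 10 cases, among them Nr5a2 at 342 to 531 against 6.93 to 16.04 CPM, and none was lower. Foxl2, Nr5a2 and Esr2 of this list were also markers from which the class was named. The count and median of this list are therefore not independent of the naming. Of 9 negative regulators of KIT signalling 5 were lower and none higher, including Grb10 at 3.45 to 6.08 against 108 to 149 CPM. Of 5 measured genes of ligand processing, the metalloproteinase genes Adam19 and Adam33 were lower. The median log2 ratio was 1.38 for the granulosa regulators and −1.71 for the negative regulators, beside 0.16 for all genes tested.

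Among the named granulosa stages, Kitl was highest at the stages of the smallest follicles. Primary-like cells, the granulosa cells of follicles that have begun to grow, had 389 (374 to 405), 469 (450 to 488), 296 (273 to 321), 378 (347 to 411) and 383 (359 to 408) CPM. Primordial-like cells, from resting follicles, had 300 (283 to 319), 292 (268 to 318), 255 (218 to 295), 476 (419 to 538) and 278 (239 to 321) CPM. Both stages kept a high level at every age, and primary-like cells were above primordial-like cells at each age but 5 wk, when 56 primordial-like cells were captured. At 4 wk their intervals overlapped. A Kitl UMI was present in 60.9% of primary-like and 53.0% of primordial-like cells thinned to 3000 UMIs, against 11.3% of stromal-like cells.

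The stages named for larger follicles had lower levels with a wider span over the ages. Secondary-like cells, which form several layers, had 251, 182, 84.1, 109 and 106 CPM. Antral-like cells were named from marker genes of follicles with a fluid-filled cavity. They had 287 (264 to 311), 60.4 (51.9 to 69.9), 35.1 (29.7 to 41.1), 114 (103 to 127) and 96.7 (90.1 to 104) CPM. The 2 wk value stands apart from the other 4, and it came from 135 cells whose antral markers summed to 2314 CPM, below the 3492 to 9352 CPM of the older libraries. The paper's counts of whole ovaries found no antral follicles at 2 wk, although it scores granulosa clusters of that age as antral. Whether these 135 cells came from antral follicles was not tested. The part of the marker difference in their Kitl level was not tested either. In cells thinned to 3000 UMIs a Kitl UMI was found in 36.2% of secondary-like and 20.3% of antral-like cells.

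Primary-like cells exceeded antral-like cells in all 5 libraries, by 1.36, 7.76, 8.45, 3.31 and 3.96 times (mean log2 ratio 2.04 ± 1.07, SD, n = 5). The mean and SD include the 2 wk library, whose antral-like cells were not shown to come from antral follicles. Kitl missed the 2-fold threshold at 2 wk, and 3.21% of the genes tested were at least 2-fold higher and 2.07% at least 2-fold lower in all libraries. Of 10 transcription factors and hormone receptors of granulosa cells, 1 was at least 2-fold higher in every library, the early gonadal factor Wt1 at 278 to 329 CPM against 10.0 to 57.7 CPM. Fshr, the receptor for follicle stimulating hormone, and Foxo1, a factor held down by growth signals, were lower throughout. None of the 25 measured signal proteins of KIT passed in either direction.

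**Figure D1:**
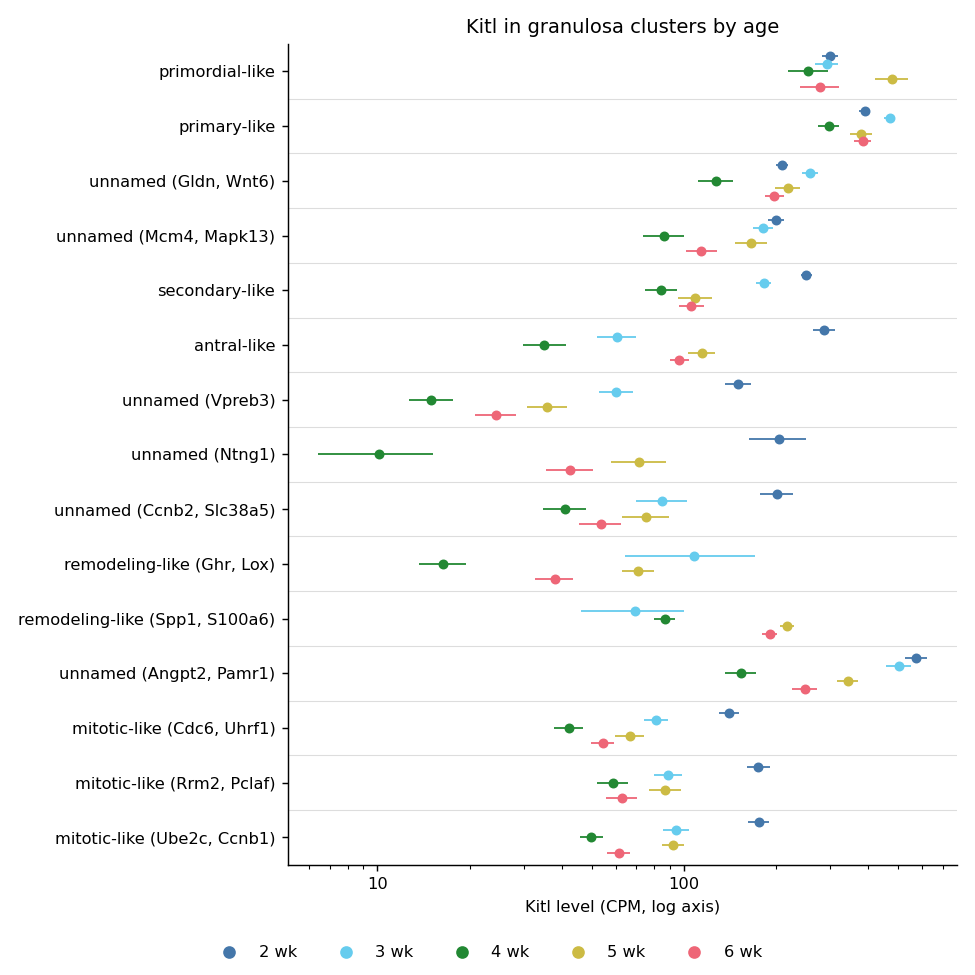
Kitl in 15 clusters of granulosa-like cells at 5 ages, in CPM on a log axis, with 95% Poisson intervals. Primary-like cells stay between 296 and 469 CPM, while antral-like cells span 35.1 to 287 CPM.

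The granulosa-like cells also held a cluster led by Angpt2, an angiopoietin, and Pamr1 that stayed unnamed. It had 572, 502, 153, 343 and 247 CPM in at least 97 cells per library, above primary-like and primordial-like cells at 2 and 3 wk and below both from 4 wk on. Unnamed clusters led by Gldn and Wnt6 and by Mcm4 and Mapk13 had 127 to 258 CPM and 86.0 to 200 CPM. Other unnamed clusters had lower medians over the libraries than the 96.7 CPM of antral-like cells. The largest granulosa cluster, with 1867 cells and led by Vpreb3, had a median of 35.8 CPM (15.0 to 150). The cluster with Ntng1 among its leading genes had 57.0 CPM (10.1 to 204) over 4 libraries. The one with Ccnb2 and Slc38a5 had 75.2 CPM (40.9 to 201). The mitotic-like clusters together had 160, 87.3, 48.8, 80.6 and 57.7 CPM. They were below primary-like cells at every age, but above antral-like cells at 3 and 4 wk.

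Remodeling-like cells, whose markers are those of granulosa cells in follicles that break down, fell into clusters that differed in Kitl. The cluster led by Spp1 and S100a6 had 69.3, 86.5, 217 and 190 CPM at 3, 4, 5 and 6 wk, while the cluster with Ghr and Lox among its leading genes had 108, 16.4, 71.0 and 37.8 CPM. The former was higher at each age from 4 wk on, and the latter rested on 21 cells at 3 wk. Antral-like cells had 35.1, 114 and 96.7 CPM at 4, 5 and 6 wk. At these ages the Spp1 cluster was above them. The Ghr cluster, with 1313 of the 2559 remodeling-like cells, was below them. Taken as 1 stage, remodeling-like cells exceeded antral-like cells by 1.33 (0.944 to 1.85), 1.402, 1.41 and 1.29 times at 3 to 6 wk (mean log2 ratio 0.44 ± 0.063, SD, n = 4 libraries), below the 2-fold threshold that 3.52% of genes passed upwards. This value depended on the clustering: the mean log2 ratio was 0.60 to 2.13 under the other clusterings tried. At 2 wk only 12 remodeling-like cells were found.

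Kitl in granulosa-like cells was lower at 4 wk than at 2 wk in every cluster that could be compared. For granulosa-like cells as a whole the 2 wk level was 4.10 (3.96 to 4.25) times the 4 wk level, and 9.33% of the genes tested were at least 2-fold lower at 4 wk. In 15 of 15 clusters the 4 wk to 2 wk ratio and its interval lay below 1, with a median of 0.300 and a range of 0.0497 to 0.847. Primordial-like cells had the ratio nearest to 1. Primary-like cells had a ratio of 0.762 and antral-like cells of 0.122.

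The level was higher again at 5 wk. Over all granulosa-like cells it was 2.26 (2.17 to 2.35) times the level a week before, where 2.68% of the genes tested were at least 2-fold higher, and 16 of 18 clusters had ratios with intervals above 1 and none below (median 1.90, range 0.905 to 7.07). From 5 to 6 wk, 13 of 18 clusters were lower with intervals below 1, with a median ratio of 0.722. Primary-like cells at 6 wk were at 0.984 times their 2 wk level (0.912 to 1.06). The ratio of 2 wk to 6 wk over all granulosa-like cells was 2.42 (2.35 to 2.49), and 4.95% of the genes tested were at least 2-fold higher and 4.91% at least 2-fold lower at 2 wk. Cell Ranger versions differ between 4 and 5 wk and between 2 and 6 wk. Differences across these pairs of ages cannot be told apart from the change of version.

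**Figure D2:**
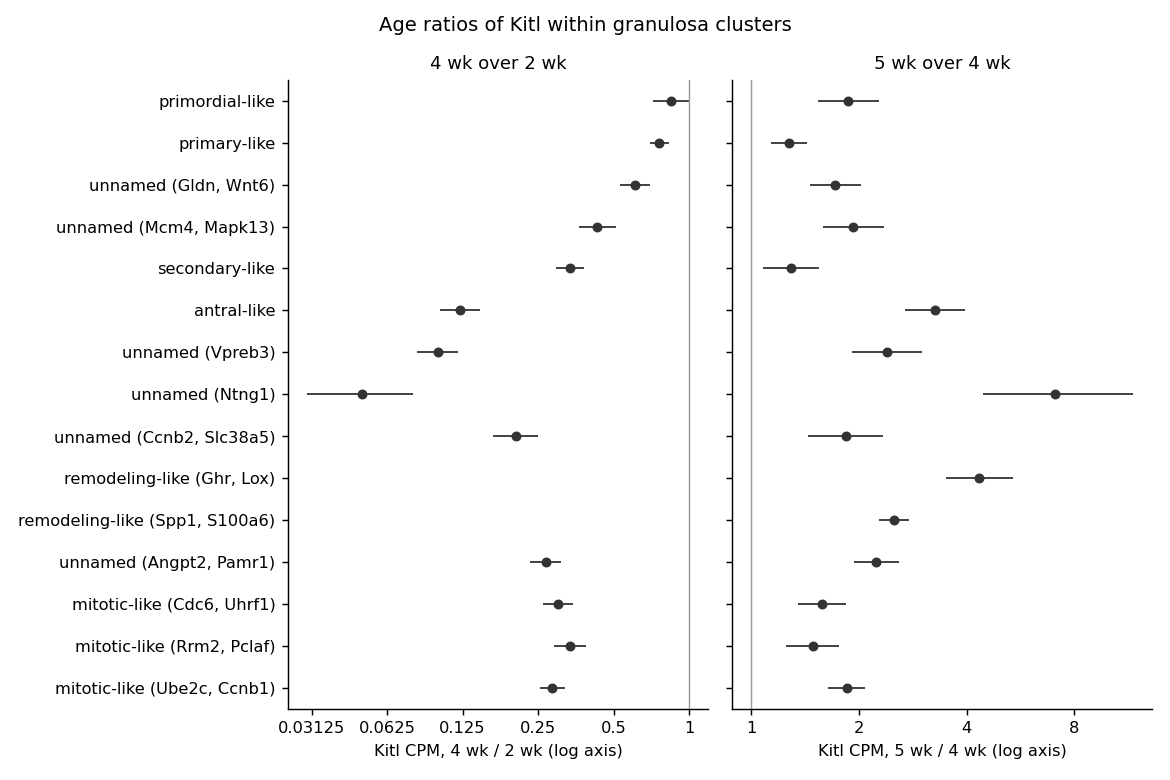
Ratios of Kitl between ages in each cluster of granulosa-like cells, 4 wk over 2 wk on the left and 5 wk over 4 wk on the right, on log axes with 95% intervals and a line at a ratio of 1. The 15 clusters of the plot of levels are shown where both ages had enough cells, and 3 small or doublet-rich clusters that the counts include are not drawn. Every ratio drawn on the left lies below 1, from 0.0497 to 0.847, and every ratio drawn on the right lies above 1, from 1.28 to 7.07.

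The mix of stages moved at the same time. Primordial-like, primary-like and secondary-like cells made up 9.45%, 13.5% and 18.3% of granulosa-like cells at 2 wk and 1.80%, 4.66% and 6.27% at 4 wk, while remodeling-like cells went from 0.388% to 22.1%. To hold the mix constant, the levels of 14 clusters present at all ages were weighted by the make-up of 1 age. With each library's own mix these clusters gave 235, 175, 61.6, 124 and 95.6 CPM, and with the 2 wk mix they gave 235, 202.2, 113, 181 and 149 CPM. With the 6 wk mix the values were 213, 133, 67.2, 120 and 95.6 CPM. The 4 wk library was lowest under each weighting, though the 14 clusters held 76.5% of its granulosa-like UMIs.

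The granulosa regulators were measured in the same contrast of ages. Comparing 2 wk with 6 wk, Foxl2, which maintains granulosa cell identity, was at 402 against 182 CPM, Gata4 at 158 against 70.2 CPM and Wt1 at 287 against 83.4 CPM. Esr2, Fshr and Foxo1 were at least 2-fold lower at 2 wk, the last at 191 against 641 CPM. Thus 3 of 10 listed regulators passed in each direction, and none of the 26 signal proteins of KIT did, beside 4.95% of all genes higher and 4.91% lower.

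Theca-like cells had the largest share of the Kit transcripts of the series. They were 2.19% of the cells and gave 2278 of the 3689 Kit UMIs, or 61.8%. By library their share was 25.4%, 36.9%, 63.75%, 74.4% and 24%, and at 6 wk granulosa-like cells gave slightly more, at 24.6%. Their Kit levels were 58.6 (46.2 to 73.3), 51.5 (42.3 to 62.0), 103 (90.5 to 116), 146 (139 to 153) and 51.3 (40.5 to 64.0) CPM in order of age, from 67, 145, 200, 572 and 69 cells. The levels at 4 and 5 wk lay above those at the other ages with no overlap of intervals. Of the 1053 cells, with a median depth of 16923 UMIs, 57.5% had a Kit UMI and 25.1% did at 3000 UMIs, against 0.383% and 0.198% of smooth muscle-like cells, whose median depth was 8868 UMIs.

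**Figure D3:**
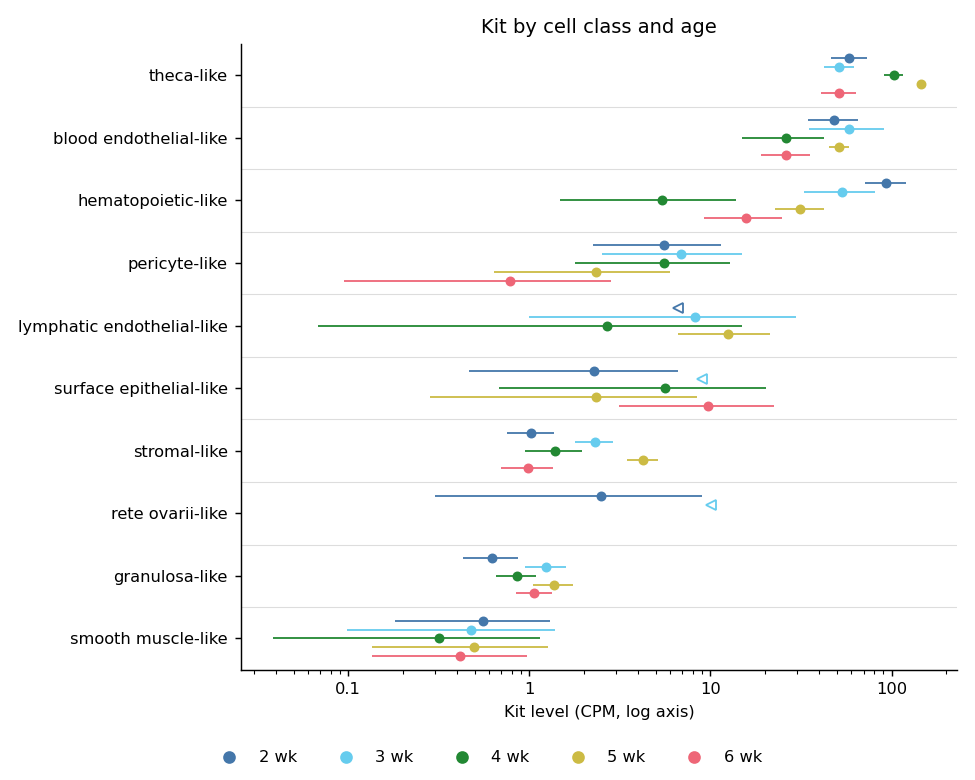
Kit in 10 cell classes at 5 ages, in CPM on a log axis. Points are libraries, bars are 95% Poisson intervals, and open triangles mark the level of 3 UMIs where no UMI was counted. Theca-like cells lie at 51.3 to 146 CPM and smooth muscle-like cells at 0.318 to 0.556 CPM.

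Granulosa-like cells, the main source of the ligand, were nearly without the receptor. They had 0.621, 1.24, 0.851, 1.36 and 1.07 CPM, and 0.235% of the cells had a Kit UMI at 3000 UMIs. Theca-like cells exceeded them by 94.3, 41.6, 121, 107 and 48.2 times (mean log2 ratio 6.24 ± 0.70, SD, n = 5), so Kit was among the 4.03% of genes at least 2-fold higher in every library, beside 8.6% that were lower. Over all libraries the ratio was 116 (103 to 131). Mitotic-like granulosa cells had 0.774 to 2.91 CPM.

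The other genes of the pathway were counted in the same comparison of theca-like with granulosa-like cells. Of 26 signal proteins, 1 was lower, Pik3r1, a regulatory subunit of PI3 kinase, at 23.7 to 39.5 CPM in theca-like and 214 to 303 CPM in granulosa-like cells. Of 9 measured negative regulators, the adaptors Grb10 and Sh2b3 were higher, Grb10 at 42.4 to 133 against 3.45 to 6.08 CPM. Of 8 measured related receptors and ligands, the platelet-derived growth factor genes Pdgfb and Pdgfc were lower. Of 5 genes of ligand processing 1 was higher, and of 5 transcription factors tied to Kit 1 was higher and 1 lower. Of all genes tested, 4.03% were higher and 8.6% lower. Across all genes the median log2 ratio was −0.17, and across the 26 signal proteins it was −0.01.

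Among the theca clusters with at least 20 cells in every library, Kit was highest in the one led by steroid enzymes and scarce in the cells named early theca-like. In the cluster led by Cyp11a1 and Cyp17a1, enzymes of steroid synthesis, Kit was at 58.1, 57.2, 113, 151 and 52.5 CPM and was found in 62.7% of 871 cells. A small cluster of 91 cells, also named steroidogenic theca-like, had a median depth of 1020 UMIs and Kit among its leading genes. Its Kit level was 120 CPM at 5 wk, the only age with at least 20 of its cells. A further cluster named steroidogenic theca-like, led by Cpa1 and with the hormone gene Sct among its leading genes, had 6.98, 11.98, 12.7, 33.7 and 8.03 CPM in 581 cells. Its leading genes Cpa1, Stc1 and Dleu7 were also among those of a stromal-like cluster with Hhip and Mest. The paper groups a theca cluster with relatively low steroid enzymes among its early theca cells. Whether that cluster holds the same cells was not tested. Early theca-like cells, with the hedgehog targets Hhip and Ptch1 among their markers, had 2, 1, 2, 4 and 0 Kit UMIs in 451, 376, 340, 201 and 317 cells.

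All steroidogenic theca-like cells together had 27.8, 33.6, 69.9, 130 and 24.7 CPM, and early theca-like cells had 0.310, 0.221, 0.536, 1.15 and 0 CPM. The mean log2 ratio of early to steroidogenic cells was −6.89 ± 0.33 (SD, n = 4 libraries), which leaves out the 6 wk library with its 0 UMIs. It was −3.98 with libraries merged without integration and −5.20 with cells thinned to 3000 UMIs. In the 6 wk library at full depth the steroidogenic level was at least 47.3-fold higher than that of 3 UMIs in the early cells. Kit was among the 2.99% of genes at least 2-fold lower in every library. Nr5a1, a regulator of steroid enzymes, was lower as well, at 20.3 to 25.4 against 121 to 205 CPM, and none of 24 measured signal proteins of KIT passed.

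Kitl followed the same order among the theca clusters with at least 20 cells in every library. The cluster led by Cyp11a1 had 194 (168 to 222), 59.0, 66.9, 238 (228 to 247) and 58.8 CPM, the cluster led by Cpa1 had 89.5, 38.9, 59.3, 156 and 48.7 CPM, and early theca-like cells had 34.3, 11.3, 25.2, 26.5 and 18.2 CPM. Early theca-like cells and the Cd24a-like stroma, which had at most 18.9 CPM, were below the stromal-like class level at every age. Thus the steroidogenic clusters were high at 2 and 5 wk and low at the other ages. In the early cells the ratio of 5 wk to 4 wk was 1.05 (0.781 to 1.42). The 8 granulosa markers summed to 783 to 1147 CPM in theca-like cells, and Kitl UMIs per 1000 of these marker UMIs were 257, 67.4, 80.2, 203 and 89.6, above the granulosa-like values in each library. The hematopoietic-like values were also above the granulosa-like ones in each library. At 5 wk Inha alone gave 1010 of the 1147 CPM in theca-like cells. The part of free RNA in the theca-like Kitl was not tested.

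**Figure D4:**
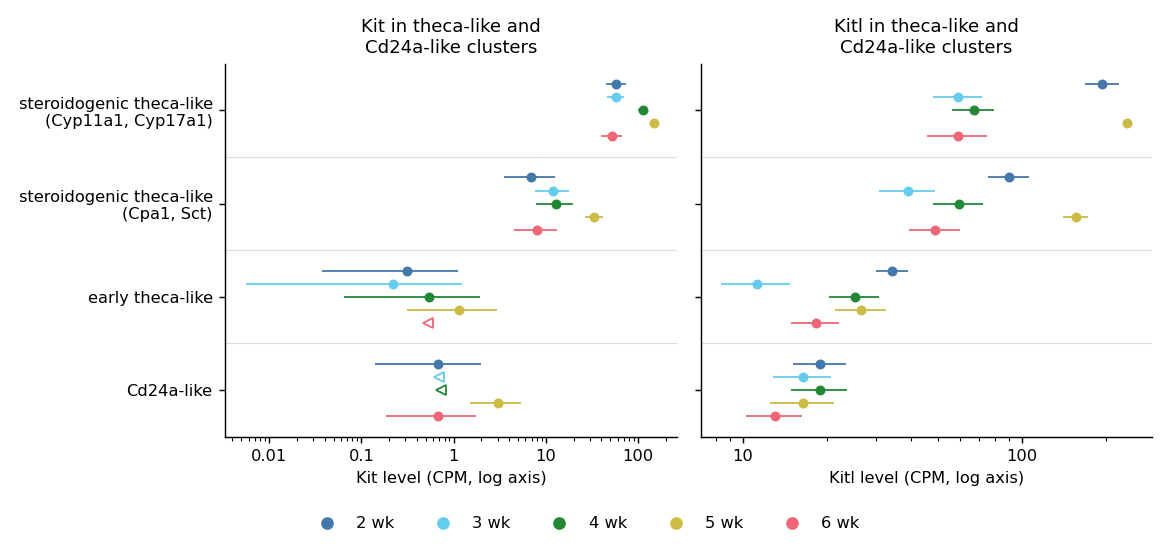
Kit (left) and Kitl (right) in 4 groups of theca-like and stromal cells at 5 ages, in CPM on a log axis, with 95% Poisson intervals. The steroidogenic cluster led by Cyp11a1 and Cyp17a1 holds 52.5 to 151 CPM of Kit, and early theca-like cells hold 0 to 1.15 CPM.

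Both genes were at their highest in theca-like cells at 5 wk. Kitl at 5 wk was 3.31 (2.84 to 3.88) times its 4 wk level, where 6.14% of the genes tested were at least 2-fold higher. This Kitl comparison was added after the levels had been seen. Kit at 2 wk was 0.402 (0.315 to 0.506) times its 5 wk level, where 7.32% of the genes tested were at least 2-fold lower and 4.36% higher. This Kit ratio changed with the cells that were counted as theca-like, from 0.229 with a finer clustering to 0.585 with a stricter filter on cells. The Kitl and Kit ratios each compare libraries of different Cell Ranger versions. The 7 theca markers summed to 6304, 1564, 3158, 11431 and 2882 CPM in these cells, highest at 5 wk as well, and the part of this in either gene was not tested.

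Other genes of the lists were compared between 2 and 5 wk in theca-like cells. Socs1, which dampens cytokine signals, was at 17.0 CPM at 2 wk and 92.2 CPM at 5 wk, and Stat3, a factor of the JAK pathway, at 70.1 and 174 CPM. Grb10 went the other way, at 133 and 42.4 CPM. Of the 19 measured signal proteins, 3 were at least 2-fold lower at 2 wk and none was higher, beside 7.32% and 4.36% of all genes tested.

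Ligand and receptor were found in the same theca-like cells. At full depth 468 of 1053 cells had a UMI of both genes. Thinned to 3000 UMIs, 87 of 967 cells (8.997%) had both, 74 of them from the 5 wk library, where the share with both was 14.3%. Kitl was present in 25%, 22.7%, 13.6%, 45.4% and 0% of the cells with a Kit UMI at 2 to 6 wk, and in 46.2%, 20.2%, 20%, 47.5% and 8.77% of those without. The share was lower beside Kit in 4 of 5 libraries. The 6 wk value rests on 6 cells with a Kit UMI, and at 2 wk 2 cells had both genes and 6 had Kit alone. Over all libraries the shares were close, at 35.8% beside Kit and 34.5% without it.

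Blood endothelial-like cells had the next level of Kit. They had 48.2 (34.8 to 65.2), 58.1 (35.0 to 90.7), 26.2 (15.0 to 42.5), 51.3 (45.3 to 57.9) and 26.2 (19.1 to 35.2) CPM, from 42, 19, 16, 261 and 44 UMIs. The intervals at 4 and 6 wk lay below that at 5 wk. A Kit UMI was found in 25.2% of these cells, and in 9.18% at 3000 UMIs. Theca markers summed to 9.19 to 24.8 CPM here, granulosa markers to 457 to 1318 CPM, and Kit UMIs per 1000 theca marker UMIs were 1419 to 5250, against 9.29 to 32.9 in theca-like cells.

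Against stromal-like cells, at 0.987 to 4.24 CPM, endothelial Kit was higher by 47.0, 25.3, 18.8, 12.1 and 26.6 times (mean log2 ratio 4.56 ± 0.72, SD, n = 5), in a comparison added after the levels had been seen in which 8.31% of genes passed upwards. Of 6 measured transcription factors tied to Kit, Gata2, Tal1 and Lmo2, which regulate blood and vessel cells, were at least 2-fold higher in every library. Tal1 was at 33.4 to 47.4 CPM in the endothelium and at 0 to 0.158 CPM in stromal-like cells. Of 26 signal proteins 6 were higher, among them the kinase genes Lyn at 65.5 to 106 against 3.79 to 5.51 CPM and Fyn at 156 to 194 against 47.7 to 81.6 CPM. Thinned to 3000 UMIs, 23 of 523 endothelial cells (4.40%) had both Kitl and Kit.

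Hematopoietic-like cells had Kit in few cells of particular kinds. The class had 93.7, 53.0, 5.43, 31.4 and 15.6 CPM from 59, 21, 4, 43 and 18 UMIs, carried by 43 of 496 cells (8.67%, or 5.66% at 3000 UMIs, the median depth being 6695.5 UMIs). The innate lymphoid-like cluster had 72 UMIs in 91 cells, and its leading genes also included the mast cell protease genes Tpsab1 and Prss34 and the immunoglobulin genes Igkc and Iglc2. Dendritic-like cells had 34 UMIs in 44 cells. Macrophage-like cells had 0 UMIs in 136 cells and natural killer-like cells 0 in 33.

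Mast cell genes were found beside Kit in single cells. Of the 43 cells with a Kit UMI, 12 carried at least 2 mast cell genes, against 2 of the 453 without. Of the 12 cells with 5 or more Kit UMIs, 9 did. The mast cell proteases Cpa3 and Mcpt4 had a UMI in 13 and 10 of the 43 cells and in 3 and 1 of the 453. At least 2 dendritic genes were found in 17 of the 43 and 20 of the 453, and at least 2 macrophage genes in 4 and 272. At least 2 innate lymphoid genes were found in 16 of the 43 and 51 of the 453. Among the 12 cells with 5 or more Kit UMIs, 2 carried at least 2 dendritic genes and 2 at least 2 innate lymphoid genes. Kitl was scarce in these cells, with 1 UMI in the 91 innate lymphoid-like cells, and macrophage-like cells had 15.9, 46.7 and 53.7 CPM at 4, 5 and 6 wk, the ages with at least 20 of these cells.

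Oocytes, whose KIT receives the granulosa ligand, were all but absent from the libraries. Only 21 cells had UMIs of at least 3 of 7 germ cell genes, with 9, 6, 3, 2 and 1 at 2, 3, 4, 5 and 6 wk. They held 145 Kit and 10 Kitl UMIs. The 5 cells with all 7 genes had 4, 4, 60, 42 and 27 Kit UMIs, and the cells with 60 and 42 came from the 5 wk library and had 228697 and 376555 UMIs in total. Kit levels of oocytes thus rest on single cells.

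Kit was low or uneven between libraries in the remaining classes. Pericyte-like cells had 0.785 to 6.88 CPM, lymphatic endothelial-like cells 0 to 12.4 CPM in the libraries with at least 20 cells, and surface epithelial-like cells 0 to 9.64 CPM. Stromal-like Kit was highest at 5 wk, at 4.24 CPM, and the theca markers summed to 340 CPM in these cells at that age against 25.8 to 58.6 CPM at the others. Cells with theca genes were also counted in the stromal-like class. A cluster of 2661 stromal-like cells had Hhip and Cpa1 among its leading genes. The 1685 early theca-like cells outnumbered the 1053 cells of the theca-like class. The steroidogenic cluster led by Cpa1 had 33.7 CPM of Kit at 5 wk. How much of the stromal-like Kit level came from such cells was not tested. In the order of class levels, theca-like cells were above blood endothelial-like cells in 4 of 5 libraries, with 3 intervals clear of 1, and the latter were above hematopoietic-like cells in 4 of 5.

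The genes whose levels most resembled those of the members were ranked over 24 named cell groups and 13312 genes, by Pearson correlation of log2(CPM + 1). This only describes the groups, which share libraries and depth. Classes also share cells with the stages and types drawn from them. A correlation does not measure the size of a difference. For Kitl they were Kcnt1 (0.86), As3mt (0.838), Tmem161b (0.834), Cwf19l2 (0.828) and Ppme1 (0.826). Kcnt1, a potassium channel gene, was highest in primary-like cells, at 20.8 CPM. For Kit they were D17Wsu92e (0.915), Ada (0.91), Dock8 (0.853), Tmem164 (0.85) and Rasgrp4 (0.847). Ada, the gene of adenosine deaminase, was highest in theca-like cells, at 40.4 CPM, and Dock8 and Rasgrp4 were highest in hematopoietic-like cells.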

How the data were processed

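Ovarian cells of 5 ages were measured, with 1 library per age, grouped by the age in the labels. The deposited matrices hold UMI counts per gene and cell, as whole numbers without normalization, for barcodes kept by the authors. Per the file headers, Cell Ranger 3.1.0 (2, 3 and 4 wk) and 6.0.1 (5 and 6 wk) made them, and the submitters' processing notes name Seurat 4.1.0 and build mm10 (GRCm38). No cell was removed. Totals were 93438618 to 144609431 UMIs per library.

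Libraries were integrated with Seurat 5.3.0 (CCA anchors, 30 components, resolution 1) in R 4.3.3, with Kitl and Kit out of the 2000 variable genes, leaving 1998. Granulosa-like, mesenchymal and hematopoietic-like cells were clustered again. A cluster needed at least 3 detected markers (10% of cells and 1.5 times the median cluster) and 30 cells, with fewer than 40% doublets, which Scrublet (scanpy 1.11.5) called and which were kept. UMIs were summed per group and library and given as CPM, for groups of at least 20 cells. Class comparisons give the mean and SD of log2 ratios over libraries. A gene was counted as higher or lower when it differed at least 2-fold that way in every library, or between both libraries for ages, among genes with at least 200 UMIs. Scripts ran in Python 3.11.15 with scipy 1.17.1 and were tested on simulated data. Besides Kitl and Kit, the text names the 5 genes nearest to each (of those with at least 500 UMIs), marker genes, and members of 6 pathway lists (72 genes) past the fold, at most 6 per list. The leading genes of clusters were named after their values were seen. The members, lists and comparisons were chosen with earlier results of these data known. Sequences and positions came from GENCODE vM21.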

Additional observations from a re-analysis of the deposited data

Results flagged for a closer look

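Kit was counted in cells that no comparison used. In the 2 cells of the 5 wk library with at least 3 germ cell genes, both in unnamed clusters, Kit was at 169 CPM from 102 UMIs, above the 0.621 to 1.36 CPM of granulosa-like cells. The unnamed clusters of that library as a whole had 23.3 CPM from 108 Kit UMIs, and without those 2 cells they had 1.49 CPM (0.546 to 3.24) from 6 UMIs. In the unnamed mesenchymal cluster led by granulosa genes, of whose 279 cells 43.4% were called doublets, Kit was at 75.3 CPM at 5 wk, against 0, 8.71, 19.7 and 5.09 CPM at 2, 3, 4 and 6 wk.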

How the results depend on the processing

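No comparison reversed. Of 98 alternatives to the 7 planned comparisons 84 stayed within the spread or interval of the value reported, and of 75 for the 6 added ones 69 did. For class comparisons this spread is the SD over libraries. Leaving out 1 library cannot shift a mean by a full SD, so those alternatives, which the counts include, could not have moved. The values that follow moved further, and the cause was not tested. For Kitl in remodeling-like over antral-like cells, the mean log2 ratio was 1.20 with Kitl and Kit kept among the variable genes, 2.13 at resolution 0.6, 0.60 at resolution 1.4 and 0.82 with libraries merged without integration. For Kit at 2 wk over 5 wk in theca-like cells, the ratio was 0.293, 0.274 and 0.229 under the first 3 of these and 0.585 after a filter on cells (a minimum of 1000 genes and less than 10% mitochondrial UMIs). Kitl at 2 wk over 6 wk in granulosa-like cells was 2.31 with the genes kept, 2.27 merged, 2.51 under that filter and 2.34 thinned to 3000 UMIs. Kitl at 4 wk over 2 wk was 0.228 at resolution 1.4, 0.253 without mitochondrial and ribosomal genes in the total, 0.254 as a mean over cells and 0.275 thinned, and at 5 wk over 4 wk it was 2.36 merged and 2.15 thinned. Kit in early over steroidogenic theca-like cells was −3.98 merged and −5.20 thinned, on the log2 scale. Thinned shares of cells with Kitl were 28.1% of granulosa-like and 55.4% of blood endothelial-like cells, and with Kit 25.1% of theca-like and 9.18% of blood endothelial-like cells. With a minimum of 50 UMIs, 1827 genes in place of 1157 passed 2-fold between 2 and 6 wk in granulosa-like cells, and 1742 in place of 774 between 2 and 5 wk in theca-like cells. The clusters with Kitl lower at 4 wk than at 2 wk were 13 of 14 under the filter on cells and 14 of 15 without mitochondrial and ribosomal genes. Leaving out each library in turn, the mean log2 ratio of Kitl in granulosa-like over stromal-like cells was 1.42 to 1.83 and that of Kit in theca-like over granulosa-like cells 6.07 to 6.45. Within Cell Ranger versions these were 1.72 and 1.44, and 6.28 and 6.17, while no comparison of ages across versions could be made within 1 version. No paired analysis was possible because each age has 1 library. Depth limits Kit most, since 0 to 4 UMIs per library stand behind its level in early theca-like cells.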
